A study of Mus musculus with 6 samples.

Results

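Potassium channel genes were read here across the cell classes of a single-cell RNA-seq table of mouse lung. The members are the rows whose symbol starts with Kcn and at least 1 further letter, whatever follows (so that Kcnq1ot1, Kcnmb4os2 and Kcne1l are included), and that hold at least 10 UMIs (unique molecular identifiers, 1 per captured mRNA molecule) over all barcodes. Of 27998 genes, 99 rows matched the symbol, 77 of them had at least 1 UMI and 53 reached the minimum. By the role their symbol names, 20 are voltage-gated pore subunits, 9 two-pore-domain (K2P) subunits, 5 inward rectifiers, 4 calcium-activated subunits, 1 a sodium-activated subunit, 12 auxiliary subunits and 2 noncoding RNAs. The members just inside the minimum were Kcng2 with 10 UMIs, Kcnh3 with 11 and Kcnj10 with 12, and the rows just outside were Kcnrg with 9 UMIs and Kcnd2, Kcnu1 and Kcnj1 with 8 each.

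Potassium channels let potassium leave or enter the cell and so set the membrane voltage. The voltage-gated channels open on depolarization, the K2P channels carry a steady leak, the inward rectifiers hold the resting voltage or follow the cell's ATP level, and the calcium-activated channels couple the voltage to calcium. In vessel walls they are known for their part in smooth muscle tone, and in lymphocytes and macrophages for sustaining calcium entry after activation.

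The lungs came from mice that all carried SMA-GFP, Tbx4cre and RosaTdTomato, so that GFP reports smooth muscle actin expression and tdTomato marks cells whose ancestors expressed Tbx4-driven Cre. Cells negative for Epcam, CD31 and CD45 were sorted as SMA+Tm+, SMA-Tm+ and SMA-Tm-, once each from normal mice (day 0) and from bleomycin-treated mice at day 21. This gives 6 samples with 1 replicate each, and the labels do not say whether animals were pooled. The deposited table holds all 10410 barcodes together under suffixes 1 to 6 that were not matched to the labelled samples, so day and sort gate enter no comparison here, and no test between samples was run.

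Of the barcodes, 9919 were kept, with 34177581 UMIs, a median of 2699 per cell and between 1783.5 and 3633.5 per cell by suffix. The classes, cut by summed marker UMIs, were 2470 fibroblasts, 47 mural cells, 94 mesothelial cells, 558 endothelial cells, 108 epithelial cells and 4897 leukocytes of 9 classes. Endothelial, epithelial and leukocyte markers were thus abundant despite the sort. Among the fibroblasts, 556 carried Hhip only, 927 Npnt only and 314 Pi16 only, while 233 carried more than 1 of these and 440 none. Fibroblasts lay mostly in suffix 4 (1792 cells) and suffix 1 (540 cells), and 33 of the 47 mural cells were in suffix 4. The cuts are ranges of marker counts: 428 fibroblasts had only 3 or 4 UMIs of Col1a2 and Col3a1, and 68, 150 and 116 cells were placed by a single UMI of Hhip, Npnt or Pi16. In all, 55 barcode sequences occurred under more than 1 suffix. Markers not used for the gates differed between the classes. Aspn was at 1427 CPM (UMIs of the gene scaled to 1000000 UMIs of the class) in Hhip-gated and 25.6 in Npnt-gated cells, Slc7a10 at 197 and 2.08 CPM in Npnt- and Hhip-gated cells, Ly6c1 at 392 CPM in Pi16-gated and 10.5 in Npnt-gated cells, and Pdgfrb at 1633 CPM in mural cells and 96.5 in all fibroblasts. The fibroblast marker Col1a2 was at 1753 CPM in fibroblasts and 5.06 in leukocytes. Col1a2 and Col3a1 form the fibroblast gate, and leukocyte or endothelial barcodes with at least 3 summed UMIs of them were set aside. Their levels in leukocytes and endothelium are thus capped by the gate and do not measure free or misassigned RNA.

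Promoters are shown for 3 members that the results below turn on: Kcnj8, the most abundant coding member, highest in Hhip-gated fibroblasts; Kcnk13, found in Npnt-gated fibroblasts and C1q macrophages; and Kcnn4, highest in T cells. Each is the 250 bases before the RefSeq start site in GRCm38.p6, written 5′ to 3′ on the gene's strand. Capitals mark matches of GGGCGG or TGTGGT on either strand. Kcnj8 lies at chr6:142571615-142571864 (minus strand), Kcnk13 at chr12:99964249-99964498 (plus strand) and Kcnn4 at chr7:24370013-24370262 (plus strand).
Kcnj8: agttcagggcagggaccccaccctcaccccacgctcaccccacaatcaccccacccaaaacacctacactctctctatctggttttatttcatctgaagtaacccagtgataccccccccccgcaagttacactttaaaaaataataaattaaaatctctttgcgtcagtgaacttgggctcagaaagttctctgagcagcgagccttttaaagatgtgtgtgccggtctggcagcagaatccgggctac
Kcnk13: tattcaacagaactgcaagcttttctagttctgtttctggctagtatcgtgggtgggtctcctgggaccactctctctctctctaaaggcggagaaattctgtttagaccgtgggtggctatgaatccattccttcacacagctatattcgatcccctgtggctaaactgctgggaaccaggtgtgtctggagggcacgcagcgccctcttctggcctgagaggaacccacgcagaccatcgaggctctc
Kcnn4: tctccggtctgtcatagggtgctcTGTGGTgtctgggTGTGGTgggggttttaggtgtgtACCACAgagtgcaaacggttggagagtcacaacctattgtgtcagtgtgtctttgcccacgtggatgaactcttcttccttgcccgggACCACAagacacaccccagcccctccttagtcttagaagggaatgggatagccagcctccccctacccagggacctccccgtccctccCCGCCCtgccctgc
The Kcnj8 and Kcnk13 stretches hold no match, and Kcnn4 holds 1 of GGGCGG and 4 of TGTGGT. RefSeq windows of 300 bases (250 before and 50 after the start) were found for 39 of the 53 members, 55 windows in all, and there was none for Kcnk3. GGGCGG occurred on either strand in 50.9% of them, against 35.7% of all 32851 windows. TATAAA occurred in 5.45% against 13.6%, TGTGGT in 5.45% against 16.8%, GAGGAAGT in 0% against 3.2%, and the CArG box, by its usual consensus, in 0% against 1.63%. The median GC content was 60.3% in the members' windows and 52.7% in all windows. These matches are a description of letters and were not tied to the levels.

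The members' summed level differed by class. Summed over the coding members it was 1088 CPM in mural cells (95% Poisson interval 889 to 1319), 765 CPM in Hhip-gated, 509 in Npnt-gated and 438 in Pi16-gated fibroblasts, and 667 in epithelial cells. It was 155 CPM in endothelium, and among leukocytes it ran from 34.1 CPM in neutrophils to 278 in alveolar macrophages and 301 in NK cells. Of the 104 coding UMIs in mural cells, 65 were of Kcnk3, which made up 680.2 of the 1088 CPM. Only 3 coding members had at least 10 UMIs there. The high mural sum thus rests mostly on Kcnk3 and does not show a high level of the members in general. All intervals here and below cover counting error only, since cells of a class are not replicates. The noncoding Kcnq1ot1, an imprinted antisense RNA of the Kcnq1 locus, was the most abundant row with 5757 UMIs and was found in every class, from 17.0 CPM in neutrophils to 283 in alveolar macrophages and 324 in mural cells. The neutrophil level is under the 51.1 CPM that 3 UMIs would give in that class.

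A leading class, the one with the highest level among those where the gene had at least 10 UMIs, could be given for 42 members. Double-gated and ungated fibroblasts were left out of this ranking. Epithelial cells led 7 of them (7.69% of all genes with a leading class), Npnt-gated fibroblasts 6 (9.52%), alveolar macrophages 6 (11.5%), Hhip-gated fibroblasts 4 (7.39%), mesothelial cells 4 (6.95%), T cells 4 (4.27%), mural cells 3 (4.26%), endothelium 2 (15.5%), Pi16-gated fibroblasts 2 (5.46%), NK cells 2 (6.52%), C1q macrophages 1 (2.08%) and dendritic cells 1 (2.45%). B cells, classical monocytes, nonclassical monocytes and neutrophils led 0, against 7.92%, 2.51%, 3.97% and 1.98% of all genes. Neutrophils held 3 member UMIs in all, so under the minimum of 10 UMIs they could lead no member. In nonclassical monocytes 0 coding members had 10 UMIs, so they could lead no coding member. With so few members per class these shares are a description.

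**Figure D1:**
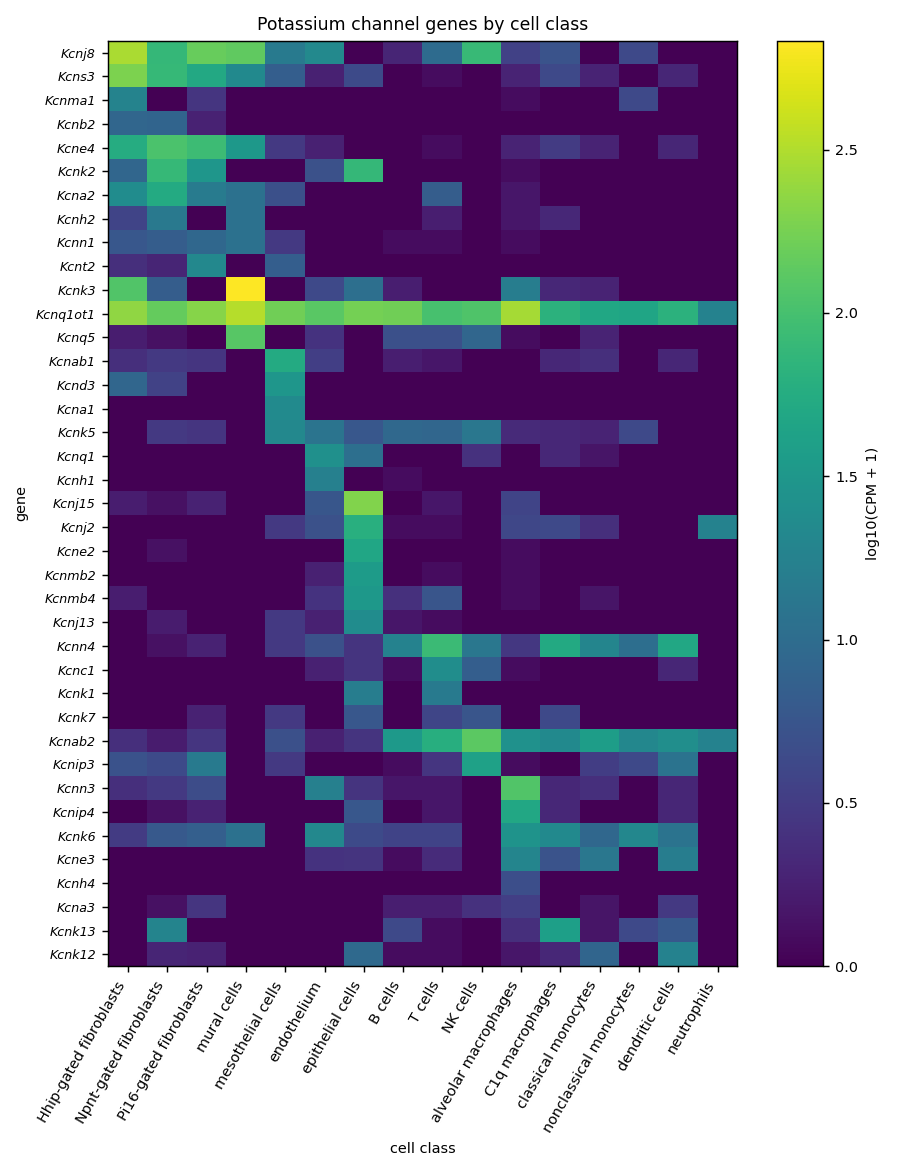
Level of 39 of the 42 members with a leading class (rows) in 16 cell classes (columns), as log10(CPM + 1), ordered by leading class. Blocks along the diagonal show members found mainly in 1 class, such as Kcnip4 in alveolar macrophages at 48.9 CPM, while Kcnq1ot1 and Kcnab2 run across many classes. Kcnk3 is highest in mural cells at 680.2 CPM and next in Hhip-gated fibroblasts at 116 CPM, which hold more of its UMIs.

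Hhip-gated fibroblasts were set apart from Npnt- and Pi16-gated fibroblasts by Kcnk3, Kcnj8 and Kcnma1. Kcnk3, an acid-sensitive K2P leak channel, was at 116 CPM (168 UMIs) in Hhip-gated cells and 4.30 CPM in Npnt- and Pi16-gated cells together, a ratio of 27.0 (95% interval 16.6 to 46.7). Kcnma1, the large-conductance calcium-activated channel of smooth muscle, had 25 UMIs against 2, a ratio of 36.2 (9.03 to 315). Kcnj8, the pore of a vascular ATP-sensitive channel, stood at 297 against 96.1 CPM, a ratio of 3.09 (2.69 to 3.55). Against all other fibroblasts, with double-gated and ungated cells included, Kcnj8 was 2.48-fold higher and so under 3-fold. Kcnd3, a fast-inactivating voltage-gated subunit, had 11 UMIs against 8, a ratio of 3.98 (1.46 to 11.4). These were the 4 of 21 countable members that were at least 3-fold higher, where 3.3% of all genes were. Here and below a gene is countable when its UMIs, all placed on 1 side, would reach 3-fold, and at least 10 UMIs are asked of the higher side.

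Kcns3, which forms no channel alone but modifies other voltage-gated subunits, was the second most abundant coding member of the Hhip-gated cells at 185 CPM, against 77.9 CPM in Npnt-gated cells, a ratio of 2.37 (1.99 to 2.84). At the other end, 4 of 16 countable members were at least 3-fold lower in Hhip-gated cells, where 5.43% of all genes were. Among them were Kcnk2 at 7.62 against 64.8 CPM, Kcnh2 at 2.77 against 9.32 and Kcnk13 with 0 UMIs against 54, which makes it at least 6.22-fold lower with 3 UMIs taken as the limit of a count of 0. The median log2 ratio over 16 members was -0.47, and 0.02 over all 10543 countable genes, with counts under 3 entered as 3.

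Suffixes 1 and 4 held nearly all Hhip-gated cells, 201 and 349, and were compared within themselves. Kcnk3 was at 85.6 CPM in suffix 1 and 128 in suffix 4, Kcns3 at 202 and 180.1, and Kcnj8 at 195 and 333. Kcnk3 was far above the other gates in both suffixes. Kcnj8 was not at least 3-fold higher within suffix 1, where its log2 ratio was 0.58, against 1.82 within suffix 4. Kcnma1 had log2 ratios of 1.81 and 4.09 there. Without suffix 4 the log2 ratio of Kcnj8 fell to 0.96 from 1.63 and that of Kcnma1, with counts under 3 entered as 3, to 2.38 from 4.59.

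**Figure D2:**
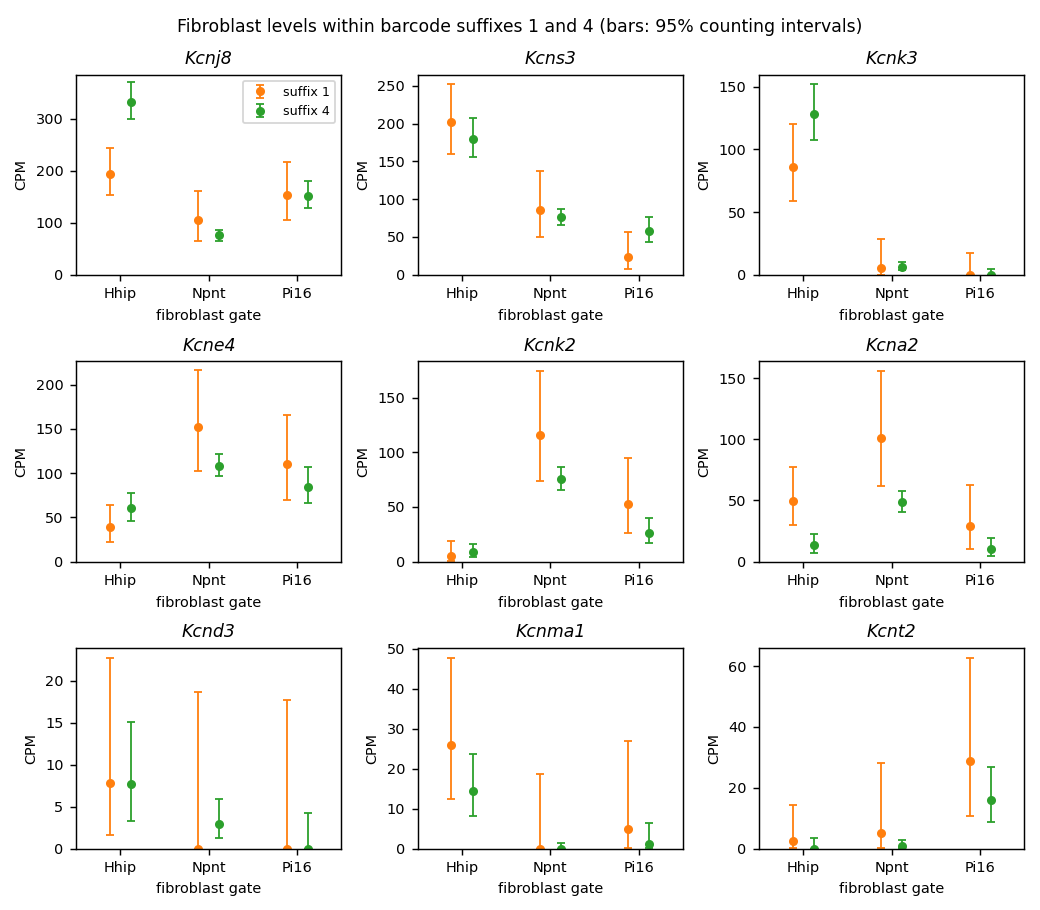
Levels (CPM) of 9 members in the Hhip-, Npnt- and Pi16-gated fibroblasts of barcode suffixes 1 and 4, with 95% Poisson intervals as bars. The order of the gates is alike in both suffixes for Kcnk3, Kcns3 and Kcnk2, and Kcnj8 in Hhip-gated cells is lower in suffix 1 (195 CPM) than in suffix 4 (333 CPM).

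Npnt-gated fibroblasts carried another set. Kcnk2, a K2P channel opened by stretch and lipids, was at 77.9 CPM (237 UMIs) against 17.4 CPM in Hhip- and Pi16-gated cells, a ratio of 4.47 (3.24 to 6.30). Kcnh2, the channel of the cardiac rapid delayed rectifier, had 39 UMIs against 4, a ratio of 8.28 (2.99 to 31.9). Kcnk13, a K2P channel inhibited by halothane, had 54 UMIs against 0, and was at least 15.3-fold higher. These were 3 of 20 countable members, where 3.89% of all genes were at least 3-fold higher.

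Among the Hhip, Npnt and Pi16 gates, further members were highest in the Npnt gate by less than that fold or only in part. Kcne4, an auxiliary subunit that restrains several voltage-gated channels, stood at 107 CPM in Npnt-gated, 86.0 in Pi16-gated and 56.1 in Hhip-gated cells, and at 108 in ungated fibroblasts. Kcna2, a delayed rectifier subunit, was at 53.6 CPM in Npnt-gated, 22.9 in Hhip-gated and 14.0 in Pi16-gated cells. Kcnk2 was at 116 CPM in suffix 1 and 75.6 in suffix 4, and Kcna2 at 101 and 48.4 CPM. The level of Kcna2 thus differed about as much between these suffixes as between the Npnt and Hhip gates.

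At least 3-fold lower in Npnt-gated cells were 6 of 21 countable members, where 4.77% of all genes were. Kcnk3 was 11.0-fold lower (6.75 to 19), Kcnt2, a sodium-activated subunit, 9.81-fold (2.99 to 50.8) and Kcnj8 3.04-fold (2.61 to 3.55). Against all other fibroblasts Kcnj8 was 2.58-fold lower. Kcne1l and Kcnma1 had 0 UMIs and were at least 5.50-fold and 10.6-fold lower. Without suffix 4, Kcnj8, Kcnt2 and Kcnma1 were no longer 3-fold lower, at log2 ratios of -1.17, -0.97 and -0.97, and Kcnk3 was 6.06-fold lower. Counts under 3 were entered as 3, so the values of Kcnt2 and Kcnma1 are limits set by the cells left.

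Kcnk2 was also compared between fibroblasts with and without a UMI of Cdh22, a cadherin. Fibroblasts with a Cdh22 UMI had 72.1 CPM of Kcnk2 and those without had 41.6, a ratio of 1.74 (1.25 to 2.36). Within Npnt-gated fibroblasts the levels were 77.9 in both, with a ratio of 1.00 (0.614 to 1.56). Cells with a Cdh22 UMI are deeper, with 651998 UMIs in 137 cells, and the part of depth was not tested.

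Pi16-gated fibroblasts held few members above the other gates. Kcnt2 had 23 UMIs against 5, a ratio of 18.1 (6.73 to 61.0), and Kcnip3, a calcium-binding partner of voltage-gated channels, 15 against 16 UMIs, a ratio of 3.69 (1.70 to 7.97). These were 2 of 21 countable members, where 2.21% of all genes were at least 3-fold higher. Within suffix 4 the log2 ratios of Kcnt2 and Kcnip3 were 4.32 and 2.20. Neither met the rule of 3-fold and 10 UMIs within suffix 1 or without suffix 4. The Pi16-gated level of Kcnt2 was 28.8 CPM in suffix 1 and 16.1 in suffix 4. Lower were 4 of 11 countable members, where 4.68% of all genes were. Kcnk3 had 0 UMIs in 314 cells and was at least 15.8-fold lower, Kcnk13 at least 4.57-fold, Kcnh2 at least 3.64-fold and Kcna2 3.11-fold (1.87 to 5.55). Without suffix 4 the bound for Kcnk3 was 4.14-fold. The levels of Kcnj8, at 149 CPM, and Kcne4, at 86.0 CPM, lay between those of the other gates.

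**Figure D3:**
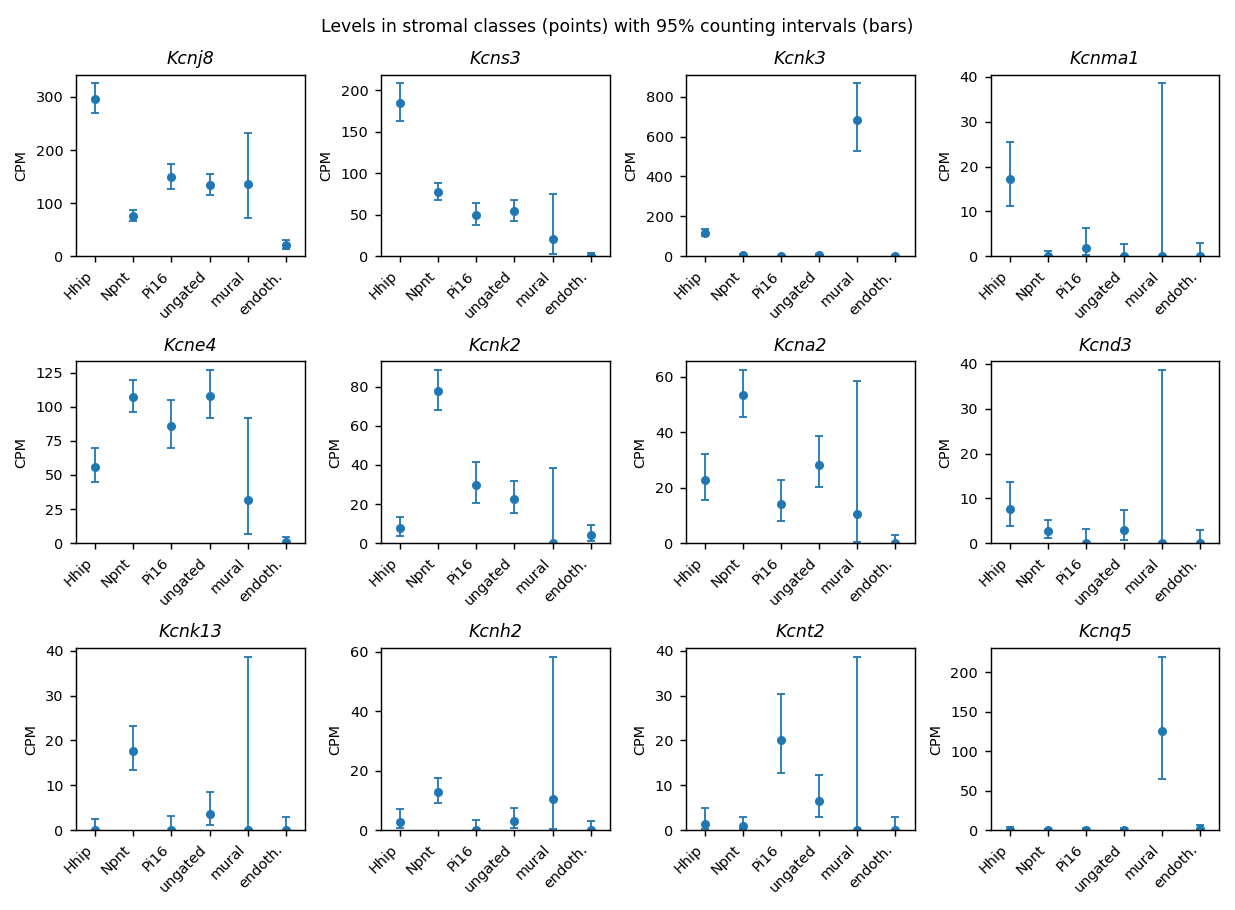
Levels (CPM, each panel with its own scale) of 12 members in fibroblast gates, mural cells and endothelium, with 95% Poisson intervals as bars. Kcnk3 peaks in mural cells (680.2 CPM), Kcnj8 and Kcns3 in Hhip-gated fibroblasts, and Kcnk2, Kcna2 and Kcnk13 in Npnt-gated fibroblasts.

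Mural cells (pericytes and smooth muscle, gated by Higd1b, Cox4i2 and Notch3) were few, with 95554 UMIs in 47 cells, and only 2 members stood clear above all fibroblasts. Kcnk3 was at 680.2 CPM, with 65 UMIs in 31 cells, against 26.5 CPM in fibroblasts, a ratio of 25.7 (19.1 to 34.1). Leukocytes held 69 Kcnk3 UMIs in all (3.92 CPM), of which 63 lay in alveolar macrophages at 14.7 CPM and 0 in 1184 T cells, whose median depth was 2930.5 UMIs against 1829 in mural cells. Kcnq5, a slowly opening voltage-gated subunit found in vascular muscle, had 12 UMIs in 8 cells against 4 in all fibroblasts, a ratio of 252 (76.5 to 1074). These were 2 of 25 countable members, where 2.08% of all genes were at least 3-fold higher. Fibroblast genes were also read in the mural cells: Col3a1 was at 1172 CPM against 2236 in all fibroblasts, Npnt at 335 against 705, Tcf21 at 209 against 337 and Aspn at 209 against 297, while Pi16 and Slc7a10 had 0 UMIs. Their part in the mural levels of the members was not tested.

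Against the Hhip-gated fibroblasts, which are the next highest class, mural Kcnk3 was 5.85-fold higher (4.32 to 7.83). Kcnj8 was the reverse: 136 CPM in mural cells (72.4 to 233) and 297 in Hhip-gated cells, a ratio of 0.458 (0.242 to 0.792). Kcne4 was 3.03-fold lower than in fibroblasts (1.03 to 14.7), 1 of 3 countable members, where 10.8% of all genes were. That rests on 3 UMIs, and without suffix 4 its log2 ratio was 0.00. Counts under 3 enter as 3, and a ratio that would then cross equality is set to no difference. This 0.00 thus need not be a measured equality. The Kcnk3 log2 ratio was 4.16 without suffix 4, against 4.68 as gated. Over all 72 barcodes that passed the mural gate it was 3.63. Of these barcodes, 25 also passed an endothelial, leukocyte, epithelial or mesothelial gate.

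Endothelium held little of most members that were abundant in fibroblasts. At least 3-fold lower were 8 of 11 countable members (72.7%), where 13.1% of all genes were. The median log2 ratio over these 11 members was -2.87 against 0.14 over all 10273 genes. Fibroblasts held 8040146 UMIs and endothelium 1251465, so members became countable as lower mainly through their fibroblast UMIs. Kcnq1, Kcnh1, Kcnn3 and Kcnk5, which were higher in endothelium, are not among the 11 or in their median. Kcne4 and Kcns3 had 1 UMI each, against 765 and 729 in fibroblasts, and Kcna2 0 against 309. Kcnk2 was 11.0-fold lower, Kcnk3 8.29-fold, Kcnj8 7.29-fold, and Kcnk13, with 0 UMIs, at least 3.27-fold. Kcnk13 was at 2.25-fold without suffix 4 and 2.36-fold without suffix 5. The fibroblast marker Col3a1 was at 16.8 CPM in endothelium, where the fibroblast gate caps it, and 2236 in fibroblasts.

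At least 3-fold higher in endothelium were 5 of 27 countable members, where 9.4% of all genes were. Kcnq1, the slow delayed rectifier subunit of heart and epithelia, had 32 UMIs against 0 in fibroblasts, at least 68.5-fold higher. Kcnh1, a voltage-gated subunit, had 20 against 0, at least 42.8-fold higher. Kcnn3, a small-conductance calcium-activated channel, was 9.18-fold higher (4.41 to 19.6), Kcnk5, an alkali-activated K2P channel, 8.99-fold (3.72 to 22.6) and Kcnk6, a weak inwardly rectifying K2P channel, 4.12-fold (2.39 to 6.98). Kcnq1 overlaps Kcnq1ot1 and Kcnh1 overlaps Hhat, each on the opposite strand, and no source used here names the strand setting of the counting. The level of Kcnq1ot1 was 128 CPM in endothelium and 184 in fibroblasts. Without suffix 4 the bounds of Kcnq1 and Kcnh1 fell to log2 values of 3.74 and 2.69 from 6.10 and 5.42. UMIs of Kcnq1 were found in all 6 suffixes, between 3 and 8 in each.

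Within endothelium, Kcnn3 and Kcnj8 were nearly confined to lymphatic cells. Of the 20 endothelial UMIs of Kcnn3, 19 lay in 23 cells gated by Prox1, Mmrn1 and Ccl21a, and 25 of 26 UMIs of Kcnj8 lay there too, at 263 CPM (170.3 to 389). Of the 32 UMIs of Kcnq1, 17 lay in the 130 cells gated by Car4 and Ednrb, markers of capillary aerocytes, a 2.89-fold higher level than in other endothelium (1.36 to 6.21). Kcnk6 was higher in the cells gated by Gpihbp1, a general capillary marker, by 2.80-fold (1.18 to 6.82). Of the 26 UMIs of Kcnj8, 17 came from suffix 5, and without it the log2 ratio to fibroblasts was -3.99 in place of -2.87, and that of Kcnn3 was 2.09 in place of 3.20. The subset gates were chosen after the values were seen.

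**Figure D4:**
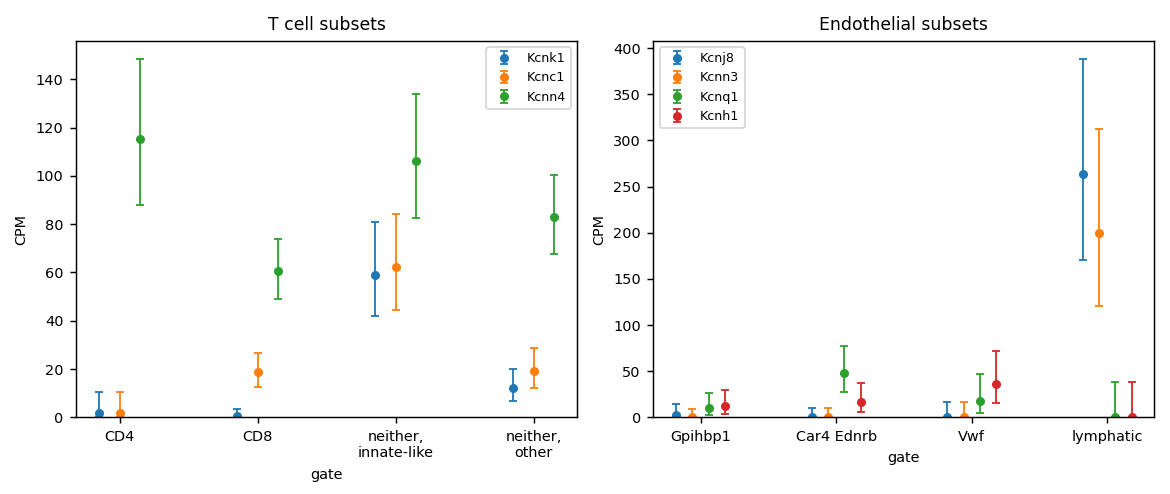
Levels (CPM, with 95% Poisson intervals as bars) of Kcnk1, Kcnc1 and Kcnn4 in T cell subsets, left, and of Kcnj8, Kcnn3, Kcnq1 and Kcnh1 in endothelial subsets, right. Kcnj8 and Kcnn3 are high only in the 23 lymphatic-gated cells among the gates shown, and Kcnk1 is highest in the T cells with neither CD4 nor CD8 that passed the innate-like gate.

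Leukocytes were set against stromal cells (fibroblasts, mural cells and endothelium). At least 3-fold higher in leukocytes were 11 of 38 countable members, where 13.3% of all genes were, and 20 of 46 were lower, where 22.7% were. Higher were Kcnab2, a beta subunit with an oxidoreductase fold, at 53.0-fold (25.6 to 132), Kcnn4, the intermediate-conductance calcium-activated channel of lymphocytes, at 38.1-fold (19.2 to 88.8), and Kcnip4 at 28.4-fold (10.9 to 105). Kcnn3 was at 7.91-fold (5.58 to 11.6) and Kcnk12 at 4.05-fold (1.59 to 13.2). The other 6 rest on 1 to 3 stromal UMIs: Kcne3 at 34.7-fold (9.41 to 289), Kcnk1 at 29.9-fold (5.15 to 1201), Kcnc1 at 27.5-fold (7.42 to 230), Kcnk7 at 9.60-fold (1.52 to 400), Kcnmb4 at 4.80-fold (1.48 to 24.7) and Kcna3 at 3.56-fold (1.06 to 18.7). Without suffix 4, the stromal side held fewer cells and Kcnn3, Kcna3, Kcnmb4 and Kcnk7 were below 3-fold, at log2 ratios of 1.25, 0.05, 0.47 and 0.00, as was Kcnk1 at 1.58. Counts under 3 were entered as 3, and a ratio that would then cross equality was set to no difference. The 0.00 of Kcnk7 thus need not be a measured equality. The log2 ratios of Kcne3, Kcnc1 and Kcnip4, on the same rule, fell to 2.36, 2.44 and 3.03 from 4.53, 4.19 and 4.83. Without suffix 5, Kcnn3 was at 13.9-fold.

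Of these 11, alveolar macrophages were the leading class of Kcnn3, Kcnip4, Kcne3 and Kcna3, and T cells of Kcnn4, Kcnc1, Kcnk1 and Kcnk7. Kcnn3 was at 116 CPM there (495 UMIs) and 0.676 in the other leukocytes, a ratio of 171 (89.5 to 377), and its level ran from 81.8 to 124 CPM over the 5 suffixes with at least 20 such cells. Kcnip4, a calcium-binding partner of A-type channels, was at 48.9 CPM, a ratio of 163 (62.6 to 603), between 35.7 and 97.9 CPM by suffix. Kcne3, an auxiliary subunit of Kcnq1 channels in epithelia, was 4.67-fold higher than in other leukocytes (3.25 to 6.77), and Kcna3 3.12-fold (1.16 to 8.34) with 10 UMIs on each side. Among members outside those 11, Kcnk6 was 4.88-fold higher there (3.63 to 6.59) and Kcnh4, with 16 UMIs against 0, at least 16.6-fold. Kcnk3 had 63 UMIs against 6 there, a ratio of 32.7 (14.2 to 92.5), at 14.7 CPM, which is small beside the mural 680.2 CPM. Col1a2 was at 11.9 CPM in alveolar macrophages, a level capped by the fibroblast gate, and the part of stromal RNA in this Kcnk3 level was not tested.

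T cells were led by Kcnn4 at 83.8 CPM, against 16.9 in other leukocytes, a ratio of 4.96 (4.18 to 5.89), with every suffix between 58.5 and 123 CPM. It was also at 52.1 CPM in C1q macrophages and 49.6 in dendritic cells. Kcnc1, a fast delayed rectifier subunit, had 96 UMIs against 7, a ratio of 45.1 (21.1 to 115), and Kcnk7 had 12 against 6. Kcnk1, a weakly conducting K2P channel, had 56 UMIs against 0 in the other leukocytes, at least 61.4-fold higher. Of its 56 T cell UMIs, 54 lay in the 640 cells with neither the CD4 nor the CD8 gate, 39 of them in the 192 cells that also held at least 2 UMIs of Cxcr6, Il17re, Il23r and Gata3 (the innate-like gate), at 59.1 CPM against 12.1 in the others. Kcnc1 stood at 62.1 CPM in those 192 cells, 18.8 in CD8-gated and 1.92 in CD4-gated T cells. Of the 56 Kcnk1 UMIs, 33 were in suffix 5.

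NK cells were the leukocyte class with the highest Kcnab2, at 129 CPM, 3.58-fold above other leukocytes (2.82 to 4.50). They also held Kcnip3 at 41.1 CPM, a ratio of 26.8 (15.02 to 47.7), and Kcnj8 at 80.6 CPM (53 UMIs), a ratio of 24.4 (16.4 to 36.1). Kcnj8 was at 131 CPM in suffix 2, 42.6 in suffix 3 and 68.0 in suffix 5. Col1a2 was at 1.52 CPM in NK cells, a level capped by the fibroblast gate. Abcc9, the regulatory partner of the Kcnj8 pore, had 0 UMIs there. In C1q macrophages Kcnk13 was at 38.3 CPM, a ratio to other leukocytes of 23.6 (13.9 to 40.4), and in dendritic cells Kcnk12, a K2P subunit silent on its own, was at 16.9 CPM, a ratio of 13.3 (6.60 to 26.5).

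**Figure D5:**
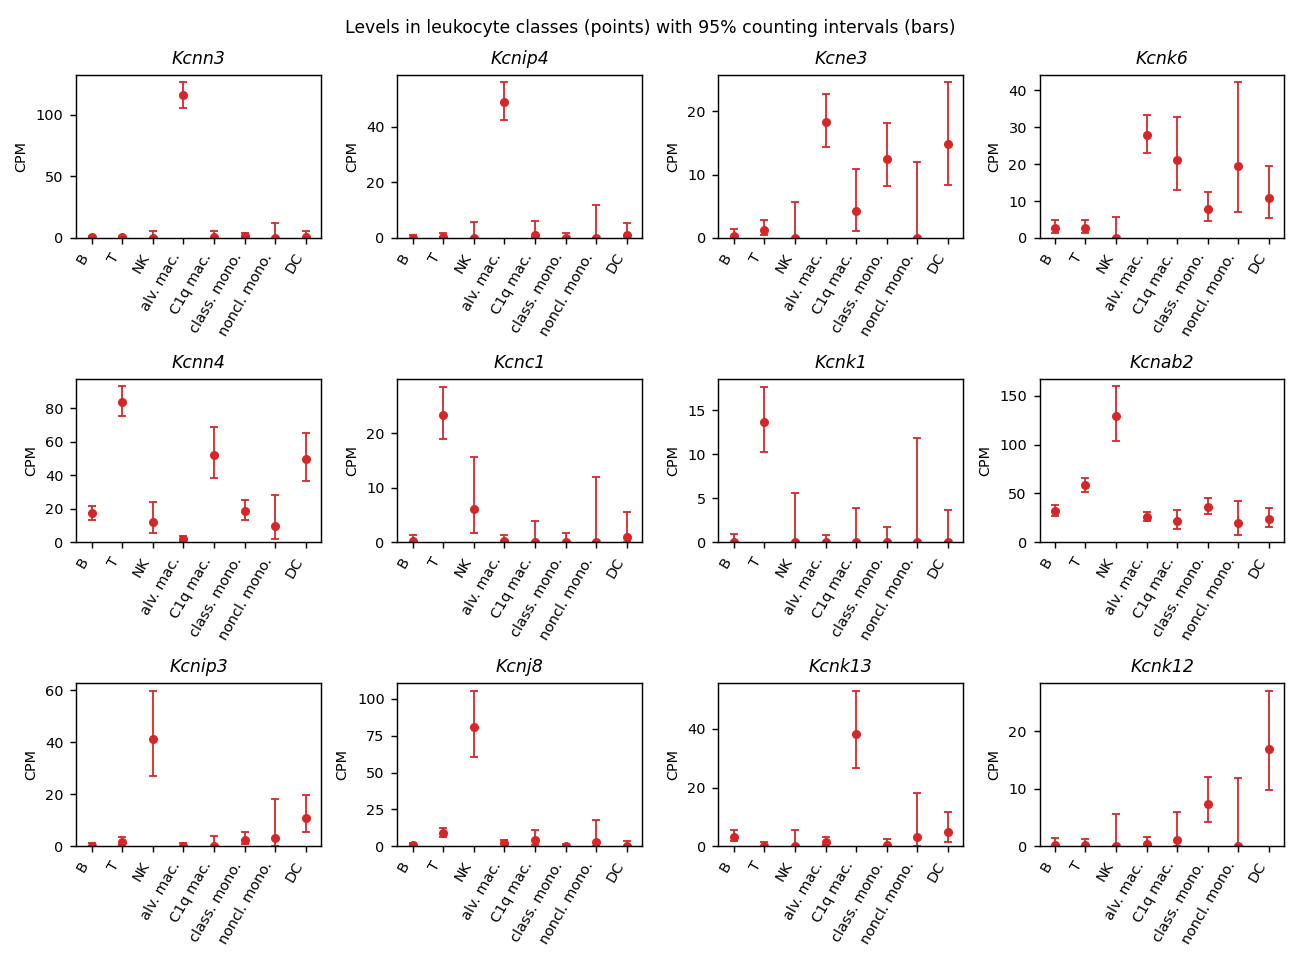
Levels (CPM, each panel with its own scale) of 12 members in 8 leukocyte classes, with 95% Poisson intervals as bars. Kcnn3 and Kcnip4 stand out in alveolar macrophages, Kcnn4, Kcnc1 and Kcnk1 in T cells, Kcnab2, Kcnip3 and Kcnj8 in NK cells, Kcnk13 in C1q macrophages and Kcnk12 in dendritic cells.

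Lower in leukocytes than in stromal cells were mainly members read in fibroblasts. Kcnk2 had 1 UMI against 359, Kcne4 was 144-fold lower (78.0 to 302), Kcns3 125-fold (69.3 to 251), Kcna2 22.4-fold (14.96 to 34.8), Kcnj8 21.6-fold (17.8 to 26.5) and Kcnk3 7.66-fold (5.87 to 10.1). Kcnt2, Kcnb2, Kcnd3, Kcne1l and Kcnv2 had 0 UMIs in leukocytes, against 40, 37, 24, 17 and 11 in stromal cells. Further ones were Kcnn1, Kcnma1, Kcnq1, Kcnh1, Kcnh2, Kcnd1 and Kcnab1, between 3.56-fold and 37.5-fold lower, of which all but Kcnh2 and Kcnab1 had at most 3 leukocyte UMIs. The stromal UMIs of Kcnq1 and Kcnh1, 32 and 20, were all endothelial. Without suffix 4, Kcns3 was 263-fold lower.

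Epithelial cells, which the sort should have left few of, and mesothelial cells were the leading class of 7 and 4 members. In the 108 epithelial cells Kcnj15 and Kcnj2, both inward rectifiers, were at 198 and 61.0 CPM, Kcnk2 at 75.8 and Kcne2, an auxiliary subunit of Kcnq1, at 46.1 CPM. Of the 46 epithelial UMIs of Kcnk2, 12 came from 1 cell. In the 94 mesothelial cells Kcnab1, a beta subunit, was at 53.6 CPM, Kcnd3 at 29.8 and Kcna1 at 21.8 CPM. Of the 27 Kcna1 UMIs in kept cells, 14 came from 1 cell outside the classes.

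The known partners were read from lists chosen with earlier results of these data known. Among 13 partner subunits, Abcc9, which forms the ATP-sensitive channel with Kcnj8, was at 149 CPM in Hhip-gated, 65.1 in Npnt-gated and 235 in Pi16-gated fibroblasts, 157 in mural cells and 3.20 in endothelium. Its order over the gates was not that of Kcnj8, which was highest in the Hhip gate. Of 12 sodium pump and potassium cotransport genes, 2 of 11 countable were at least 3-fold higher in Hhip-gated cells, where 3.3% of all genes were. They were the pump beta subunits Atp1b1 at 18.3-fold (7.69 to 53.1) and Atp1b2 at 3.06-fold (1.89 to 4.96). Of 19 calcium entry and release genes, 2 of 16 countable were at least 3-fold higher in Npnt-gated cells, where 3.89% of all genes were. They were Cacna1d, an L-type pore, at 7.21-fold (5.16 to 10.3), and Ryr3, a release channel, with 14 UMIs against 1. In endothelium, Fxyd1, a pump regulator, was 61.0-fold lower (37.5 to 107) than in fibroblasts. In mural cells no gene of these lists was at least 3-fold higher with the 10 UMIs asked for. Atp1b2, with 9 UMIs, was at 94.2 CPM against 11.9 in fibroblasts, a ratio of 7.89 (3.50 to 15.6), and Itpr2 and Stim2, with 7 UMIs each, had ratios of 3.64 (1.44 to 7.66) and 3.33 (1.32 to 7.00).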

How the data were processed

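Per the labels' protocols, 10x Genomics 3′ v2 libraries were made from sorted cells. The submitters' processing notes name Cell Ranger 1.3.0, STAR 2.5.1 and the build mm10. The deposited table holds raw UMI counts per gene and barcode for all libraries together, per the file headers. The barcode suffixes were not matched to samples, and no column was set aside (0 columns of other samples). Each library is 1 sample, so no p-values are given.

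Barcodes with at least 500 genes and at most 10% mitochondrial UMIs were kept. Scrublet (scanpy 1.11.5) called doublets per suffix and removed 75 barcodes (0.75%). Cells were classed by summed marker UMIs, with minimums chosen after seeing the counts: 3 for fibroblasts, 2 for endothelium, 2 of 3 mural genes, 1 UMI for Hhip, Npnt and Pi16, and 2 to 5 for other classes. Barcodes with conflicting gates (341) and unclassed cells (1404) were set aside. Not every double pass counted as a conflict. Mural and mesothelial cells could also pass the fibroblast gate, and leukocytes the endothelial gate without a Cdh5 UMI. The B and T cell gates outranked the NK gate. These lymphocyte gates outranked the monocyte, dendritic and neutrophil gates, and the C1q and dendritic gates outranked the classical monocyte gate. The classed cells held 82.9% of the members' UMIs in kept cells.

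Levels are UMIs scaled to 1000000 UMIs of the class with exact 95% Poisson intervals, and ratios have exact conditional binomial intervals. A gene counted as higher or lower at 3-fold or more with at least 10 UMIs on the higher side, entering counts under 3 as 3. It was countable where its UMIs, all placed on 1 side, would reach that fold. A log2 ratio that this entry would carry past equality was set to no difference. The rule was checked on simulated counts. Named members are those past the rule in any of 6 comparisons or with at least 100 UMIs in kept cells. The members, lists and gates were chosen with earlier results of these data known. Values of a few members and partner genes that enter the counts are not reported here. Motifs were searched with regular expressions. Python 3.11.15, numpy 2.4.6, scipy 1.17.1 and pandas 2.3.3 were used.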

Additional observations from a re-analysis of the deposited data

How the results depend on the processing

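No paired analysis was possible because each labelled sample has 1 replicate and the suffixes were not matched to samples. Over all alternatives, 902 of 1063 values of members past the rule stayed within their spread, 159 moved and 2 reversed: within suffix 5, Kcnn3 and Kcnmb4 in leukocytes against stromal cells had log2 ratios of -0.67 and -2.01. The 2-fold and 30-UMI settings change the rule and not the values, so their 70 values each could not move and say nothing on stability. Within suffix 1, 26 values moved and 6 stayed, and within suffix 4, 27 moved and 28 stayed. Without suffix 4, 22 moved and 30 stayed. Within suffixes 2, 3, 5 and 6, 0 stayed. The counts of members moved as follows, and the cause was not tested. With 1000 genes and 5% mitochondrial UMIs, Hhip-gated higher 2, Pi16-gated lower 2, mural higher 1 and lower 0. With gate minimums doubled, Hhip-gated higher 2. Without mitochondrial and ribosomal protein genes, mural lower 2. With a minimum of 30 UMIs, Hhip-gated higher 2, Npnt-gated lower 3, Pi16-gated higher 0, mural higher 1, endothelium higher 1 and leukocytes lower 13. At 2-fold, Npnt-gated higher 5, Pi16-gated lower 7, mural lower 2 and endothelium lower 13. Without suffix 4, Hhip-gated lower 2, Npnt-gated lower 1, Pi16-gated higher 0 and lower 2, mural higher 1, leukocytes higher 5 and lower 12. Mural lower was 0 without suffix 1, 3 or 6, and endothelium higher was 3 without suffix 5. Within suffix 1, Npnt-gated lower 1, Pi16-gated higher 0 and lower 2, endothelium higher 0 and lower 3, leukocytes higher 5 and lower 7. Within suffix 4, endothelium higher 0 and lower 4, leukocytes lower 12. Within suffixes 2, 3, 5 and 6, leukocytes higher were 1, 0, 2 and 1, and lower 1, 1, 2 and 0. Over all barcodes that passed the mural gate, added after seeing the data, mural lower was 5. With fibroblasts alone as the stromal side, also added after seeing the data, 1 member's value moved and 28 did not. With all other fibroblasts as the reference of each gate, 9 values moved and 14 did not.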
